A study of Homo sapiens with 9 samples.

Results

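AP-1 transcription factors were followed by bulk RNA sequencing in FaDu, an established cell line from a human squamous carcinoma of the hypopharynx. The 10 genes chosen by name were FOS, FOSB, FOSL1, FOSL2, JUN, JUNB, JUND, BATF3, MAFF and MAFG, out of 58735 genes in the deposited count table. All 10 were found by symbol, and the table's own transcription factor column gave each of them, and 38 other genes, the basic leucine zipper (bZIP) family. The 3 groups of 3 libraries each were KD_OE, FaDu cells with the genotype AMIGO2 knockdown and CAPN2 overexpress; KD_NC, FaDu cells with the genotype AMIGO2 knockdown; and NC_NC, the normal control with the genotype WT. All groups shared the cell line, grown in MEM with fetal bovine serum, and the label of no treatment. The labels do not say how AMIGO2 was knocked down, which vector carried CAPN2 or whether the control carried an empty vector, and all cultures came from 1 cell line. AMIGO2 is a leucine-rich repeat protein of the cell surface, and CAPN2 is the catalytic subunit of m-calpain, a protease activated by calcium.

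The labels of the genotypes were checked first, in CPM (counts scaled to a common library size) after scaling by the trimmed mean of M values (TMM). AMIGO2 averaged 39.0 ± 3.79 CPM in the libraries labelled KD_OE, 27.7 ± 3.41 CPM in those labelled KD_NC and 27.6 ± 1.73 CPM in the NC_NC libraries (SD, n = 3 each). The level of AMIGO2 was thus no lower in the libraries labelled as its knockdown than in the control. In those labelled KD_OE it was 1.41-fold higher than in those labelled KD_NC and than in NC_NC (edgeR adjusted p = 0.00140 and 0.00106). CAPN2 averaged 499 ± 1.29 CPM in the libraries labelled KD_OE, 418 ± 20.3 CPM in those labelled KD_NC and 462 ± 13.9 CPM in the NC_NC libraries (SD, n = 3 each). CAPN2 was 1.19-fold higher in the libraries labelled KD_OE than in those labelled KD_NC (edgeR adjusted p = 0.0120). Against NC_NC the libraries labelled KD_OE did not differ detectably in CAPN2, with a log2 fold change of 0.109 (edgeR adjusted p = 0.254). The level of CAPN2 was thus not detectably above the control in the libraries labelled as its overexpression. Every direction given here therefore rests on the labels of the libraries. The 7 squamous epithelial markers, KRT5, KRT14, KRT17, TP63, EPCAM, CDH1 and SFN, summed to 4452 to 5080 CPM in the libraries labelled KD_OE, 4067 to 5162 CPM in those labelled KD_NC and 7749 to 8246 CPM in the NC_NC libraries, with none at 0. The 9 markers of other cell types summed to at most 18.1 CPM in any library, nearly all of it COL1A1 and VWF, and the defining leukocyte genes PTPRC and CD3E had 4 and 3 counts over all 9 libraries. Library totals ran from 15158607 to 19737562 counts, so that 3 counts corresponded to 0.152 to 0.198 CPM.

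AP-1 is a dimer of bZIP proteins. JUN proteins pair with each other or with FOS proteins, whereas FOS proteins need a JUN partner, and the dimers bind the TPA response element and, depending on the partner, the cyclic AMP response element. Growth factor and stress signals reach the genes through mitogen-activated protein (MAP) kinases, and FOS, FOSB, JUN and JUNB are classical immediate early genes. FOSL1, also called FRA-1, and FOSL2 lack the strong activation domain of FOS and are known for sustained expression in epithelial tumour cells, where FOSL1 is linked to invasion and to metalloproteinase genes. The small MAF proteins MAFF and MAFG have no activation domain and pair with NRF2 and its relatives or with BACH proteins at antioxidant response elements. BATF3, best known from dendritic cells, pairs with JUN proteins.

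The stretches of promoter shown here are those in which elements bound by bZIP proteins, or the TATA box of the immediate early genes, were found, since bZIP dimers are known to act on the genes of this family. RefSeq gave 9 promoter entries for 8 of the 10 genes, on GRCh38.p14, and the 250 bases before each start were searched on both strands for 7 motifs. Each is printed 5′ to 3′ on the strand of its gene, with the matching letters in capitals. The first group holds matches to the cyclic AMP response element, TGACGTCA, or the JUN-type element, TGACATCA.
JUN, chr1:58784096-58784125, minus strand: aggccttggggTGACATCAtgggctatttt
JUND, chr19:18281804-18281833, minus strand: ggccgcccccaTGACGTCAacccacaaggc
MAFF, chr22:38201929-38201958, plus strand: ggccgggtcggTGACGTCAccgcatgactg
The JUN element started 67 bases before the start site, the one of JUND 200 bases and the one of MAFF 54 bases before it. TGACGTCA was present in 1.646% and TGACATCA in 2.375% of 35116 RefSeq promoter windows of the same length. The JUN and MAFF matches lay inside exons that GENCODE annotates for longer transcripts.

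The immediate early genes FOS, FOSB and JUNB each had a TATA box, TATAAA, 30 to 33 bases before the start, which was present in 10.72% of the windows. JUN had no such match, and the match of FOS lay inside an annotated exon.
FOS, chr14:75278784-75278811, plus strand: aaaacgcttgtTATAAAagcagtggctg
FOSB, chr19:45467955-45467982, plus strand: ggtcccgggcaTATAAAtacaggctggc
JUNB, chr19:12791444-12791471, plus strand: gactagcgcggTATAAAggcgtgtggct
The JUND window is shown whole because it holds a cyclic AMP response element and 2 matches to the core of the antioxidant response element. Capitals mark TGACGTCA and the matches to the core of the antioxidant response element, TGACNNNGC, on either strand.
JUND, chr19:18281623-18281872, minus strand: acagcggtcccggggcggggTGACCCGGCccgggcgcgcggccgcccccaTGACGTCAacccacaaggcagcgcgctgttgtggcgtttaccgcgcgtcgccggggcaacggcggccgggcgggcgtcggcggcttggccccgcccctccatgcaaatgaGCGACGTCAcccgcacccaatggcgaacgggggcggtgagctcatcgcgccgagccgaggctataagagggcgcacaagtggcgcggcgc
MAFF, with a cyclic AMP response element given above, also held a match to the antioxidant core, on the other strand and inside an annotated exon.
MAFF, chr22:38201862-38201890, plus strand: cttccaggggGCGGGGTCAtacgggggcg
The antioxidant core was present in 10.91% of all windows. Neither the TPA response element, TGANTCA, present in 6.573% of windows, nor the CArG box that binds serum response factor, in 1.159%, was matched in the windows of these genes. That says only that these letters are not in the windows searched. These matches are descriptions of sequence, and no binding was measured.

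Genes were tested with edgeR's quasi-likelihood test over all 9 libraries, and each adjusted p is from that test with Benjamini-Hochberg adjustment over the 16812 genes that passed a filter on low counts. A gene was called at an adjusted p under 0.05. Of the 10 genes, 9 passed the filter and BATF3 did not. In the libraries labelled KD_NC against NC_NC, which differ by the label of AMIGO2 knockdown, 3 of the 9 were higher (JUN, MAFF and MAFG) and 0 lower. Of all genes tested, 16.0% were called higher and 18.5% lower in this comparison, and 34.6% in either direction. The libraries labelled KD_OE and those labelled KD_NC differ by the label of CAPN2 overexpression. In KD_OE against KD_NC, 2 of 9 were higher (JUN and JUNB) and 5 lower (FOSB, FOSL1, JUND, MAFF and MAFG). Beside them stood 23.7% and 25.6% of all genes, and 49.2% in either direction. In the libraries labelled KD_OE against NC_NC, 2 of 9 were higher (JUN and MAFF) and 3 lower (FOS, FOSL1 and JUND), beside 27.9% and 28.4% of all genes and 56.3% in either direction. The counts of 3 and 5 of 9 were near the background of their comparisons. That of 7 of 9 was above its own, in a list of few genes chosen with earlier results of these data known. Without 1 library it was 4 to 6 of 9, with 4 without KD_NC replicate 1 or KD_OE replicate 1, near the background. For 4 of the 9 genes no library of one group lay within the range of the other in KD_NC against NC_NC, beside 44.7% of all genes, and the same held for 7 in KD_OE against KD_NC, beside 54.0%, and for 6 in KD_OE against NC_NC, beside 66.9%. The sizes of the changes were modest. The median absolute log2 fold change of the 9 genes was 0.21 in the first comparison, beside 0.31 over all genes tested, 0.28 in the second, beside 0.43, and 0.32 in KD_OE against NC_NC, beside 0.51. These comparisons share groups of libraries, so that their values for 1 gene are not independent of each other. The spread between replicates is that between libraries the labels call biological replicates, and bulk RNA cannot tell fewer cells expressing a gene from less RNA per cell.

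**Figure D1:**
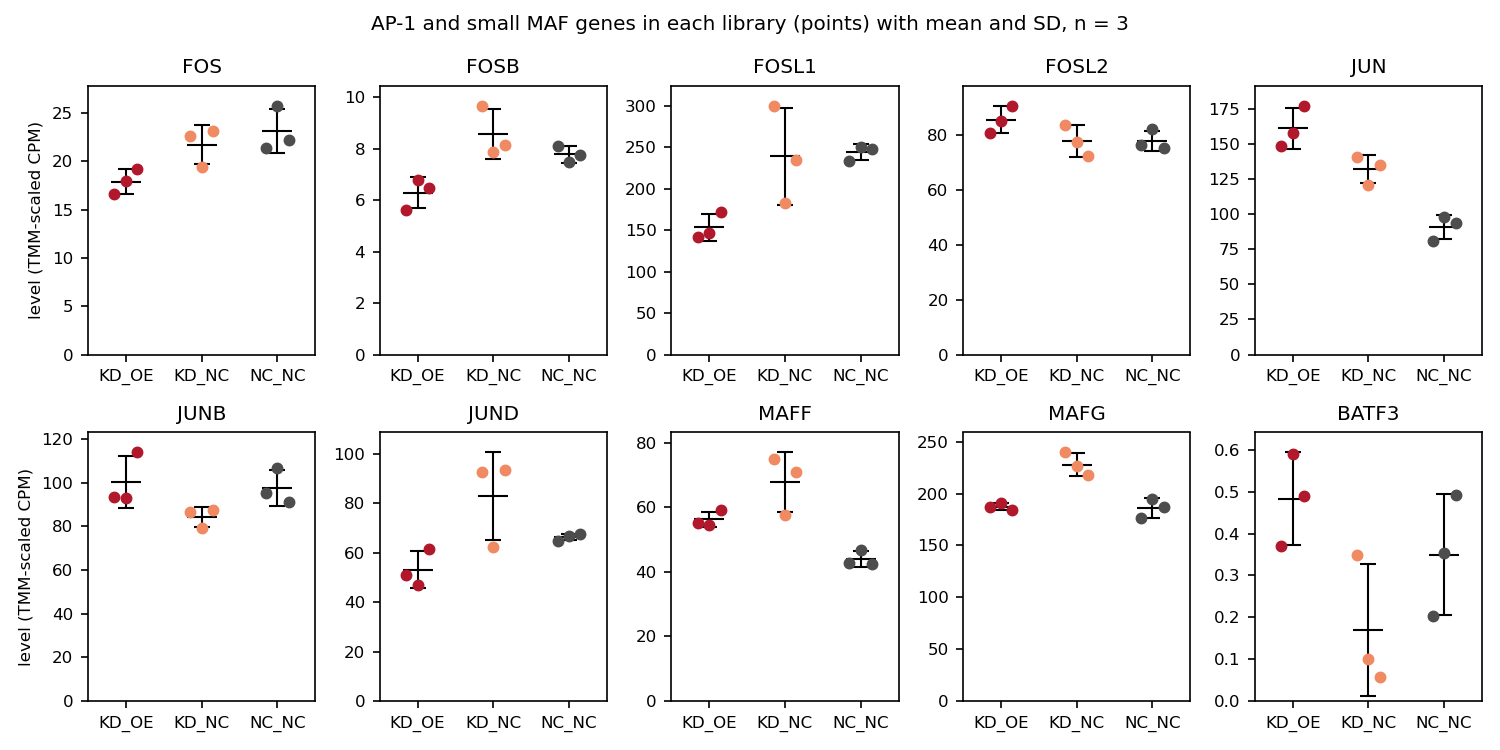
TMM-scaled CPM of each of the 10 genes (1 panel a gene, vertical axes starting at 0) in the 3 libraries labelled KD_OE, the 3 labelled KD_NC and the 3 NC_NC libraries, with bars for the mean and SD. FOSL1 spans 183 to 299.9 CPM among the libraries labelled KD_NC, and JUN is higher in all 6 libraries labelled as knockdown than in the 3 NC_NC libraries.

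FOSL1 (ENSG00000175592; chr11:65892049-65900573, GRCh38, minus strand) was the FOS gene with the largest fall. It had 142, 146 and 172 CPM in the libraries labelled KD_OE, 299.9, 183 and 235 CPM in those labelled KD_NC and 233, 250.4 and 248 CPM in the NC_NC libraries. Every library labelled KD_OE was below every other library, while the libraries labelled KD_NC lay on both sides of the NC_NC libraries. Against the libraries labelled KD_NC, FOSL1 was 1.56-fold lower in those labelled KD_OE, a log2 fold change of -0.64 ± 0.131 (SE; edgeR adjusted p = 0.000554). Against NC_NC the same libraries were 1.59-fold lower, at -0.67 ± 0.131 (SE; edgeR adjusted p = 0.000288). Both falls kept their call under each of the 13 alternatives tried for each, with log2 fold changes from -0.84 to -0.46 and from -0.76 to -0.42. The libraries labelled KD_NC did not differ detectably from NC_NC, with a log2 fold change of -0.03 and a 95% interval from -0.30 to 0.25 (edgeR adjusted p = 0.890). Its CV among the libraries labelled KD_NC was 24.4%, against 3.91% among the NC_NC libraries.

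FOS (ENSG00000170345; chr14:75278774-75282230, plus strand), the founding member of the family, was expressed at a lower level than FOSL1 and FOSL2. Its mean over all libraries was 20.9 CPM, beside a median of 16.0 CPM over all genes tested. It had 16.6, 18.0 and 19.2 CPM in the libraries labelled KD_OE, 22.7, 19.5 and 23.1 CPM in those labelled KD_NC and 21.4, 25.8 and 22.2 CPM in the NC_NC libraries. The libraries labelled KD_OE were the 3 lowest. FOS fell 1.29-fold in them against NC_NC, at -0.37 ± 0.120 (SE; edgeR adjusted p = 0.0131). The difference from the libraries labelled KD_NC, -0.28 ± 0.119, missed the threshold (SE; edgeR adjusted p = 0.0606). The call against NC_NC was lost for FOS with upper-quartile scaling (-0.27, edgeR adjusted p = 0.0683), without KD_OE replicate 1 (-0.32, 0.0636 by the same test) and without NC_NC replicate 2 (-0.30, 0.0783), and its size was -0.13 after correction for GC content and length (edgeR adjusted p = 0.278).

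FOSB (ENSG00000125740; chr19:45467995-45475179, plus strand), another immediate early member, was the lowest of the FOS genes. It had 5.62, 6.79 and 6.49 CPM in the libraries labelled KD_OE, 9.67, 7.86 and 8.14 CPM in those labelled KD_NC and 8.12, 7.49 and 7.75 CPM in the NC_NC libraries. No library labelled KD_OE reached the lowest of the others. FOSB was 1.36-fold lower in the libraries labelled KD_OE than in those labelled KD_NC, at -0.44 ± 0.153 (SE; edgeR adjusted p = 0.0228). That call was lost for FOSB without KD_NC replicate 1 (-0.35, edgeR adjusted p = 0.0813) or KD_OE replicate 1 (-0.39, 0.0774). Against NC_NC the libraries labelled KD_OE stood at -0.30 with a 95% interval from -0.63 to 0.02 (edgeR adjusted p = 0.105), and those labelled KD_NC at 0.14 with an interval from -0.18 to 0.45 (0.519 by the same test).

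FOSL2 (ENSG00000075426; chr2:28392448-28417312, plus strand), the relative closest to FOSL1, was called in none of the comparisons by edgeR, nor at an unadjusted p under 0.05. It had 81.0, 85.5 and 90.8 CPM in the libraries labelled KD_OE, 84.0, 77.5 and 72.5 CPM in those labelled KD_NC and 76.6, 82.3 and 75.3 CPM in the NC_NC libraries. The groups overlapped throughout. The log2 fold change was 0.14 in the libraries labelled KD_OE both against those labelled KD_NC (95% interval from -0.05 to 0.33) and against NC_NC (from -0.06 to 0.33), and -0.0014 in those labelled KD_NC against NC_NC (from -0.19 to 0.19). With upper-quartile scaling, which moved the median of all genes by 0.10 on the log2 scale in the comparison of KD_OE with NC_NC, FOSL2 was called higher there (0.24, edgeR adjusted p = 0.0354).

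JUN (ENSG00000177606; chr1:58780788-58784327, minus strand), the founding JUN protein and the substrate of the JNK kinases, was the member with the largest rise over the 3 comparisons. It had 148, 158 and 177 CPM in the libraries labelled KD_OE, 141, 121 and 135 CPM in those labelled KD_NC and 81.1, 97.8 and 93.8 CPM in the NC_NC libraries. The 3 groups did not overlap. JUN was 1.45-fold higher in the libraries labelled KD_NC than in NC_NC, at 0.54 ± 0.0984 (SE; edgeR adjusted p = 0.000332), and 1.77-fold higher in those labelled KD_OE than in NC_NC, at 0.83 ± 0.0986 (edgeR adjusted p = 8.6e-07). The libraries labelled KD_OE were also 1.22-fold higher than those labelled KD_NC, at 0.29 ± 0.0973 (SE; edgeR adjusted p = 0.0198). Both rises against NC_NC kept their call for JUN under all 13 alternatives each. The rise of JUN between the libraries labelled KD_OE and KD_NC was lost without KD_NC replicate 2 (0.19, edgeR adjusted p = 0.120), without KD_OE replicate 3 (0.21, 0.121) and, narrowly, without the filter on low counts (0.25, 0.0513).

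JUNB (ENSG00000171223; chr19:12791496-12793315, plus strand), which can oppose JUN at AP-1 sites, was lower in the libraries labelled KD_NC than in either other group by its values. It had 93.6, 92.8 and 113.8 CPM in the libraries labelled KD_OE, 86.3, 79.0 and 87.4 CPM in those labelled KD_NC and 95.04, 106.8 and 91.0 CPM in the NC_NC libraries. The libraries labelled KD_NC were the 3 lowest, and the other groups overlapped. The difference of the libraries labelled KD_OE from those labelled KD_NC was called, at 1.19-fold and 0.25 ± 0.0996 (SE; edgeR adjusted p = 0.0452). It kept its call for JUNB under only 4 of 13 alternatives and was lost with DESeq2 (0.24, adjusted p = 0.0504) and without KD_OE replicate 3 (0.14, edgeR adjusted p = 0.285), among others. Against NC_NC, JUNB stood at -0.21 in the libraries labelled KD_NC (95% interval from -0.42 to -0.005; edgeR adjusted p = 0.105) and at 0.04 in those labelled KD_OE (interval from -0.17 to 0.24; 0.781). Of its exon sequence, 259 bases lie opposite HOOK2, which had 5621 counts beside 14205 for JUNB, and the labels do not say whether reads there were told apart by strand.

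JUND (ENSG00000130522; chr19:18279760-18281622, minus strand), the JUN protein known for steady expression in resting cells, went the other way. It had 50.9, 47.0 and 61.4 CPM in the libraries labelled KD_OE, 92.4, 62.2 and 93.5 CPM in those labelled KD_NC and 64.8, 66.8 and 67.4 CPM in the NC_NC libraries. The libraries labelled KD_OE were the 3 lowest, and KD_NC replicate 2 stood below the others of its group and under the NC_NC libraries. JUND was 1.56-fold lower in the libraries labelled KD_OE than in those labelled KD_NC, at -0.64 ± 0.133 (SE; edgeR adjusted p = 0.000551), and this call held for JUND under all 13 alternatives, at -0.84 to -0.38. Against NC_NC the libraries labelled KD_OE were 1.25-fold lower, at -0.32 ± 0.133 (SE; edgeR adjusted p = 0.0469). That call was lost for JUND with upper-quartile scaling (-0.22, edgeR adjusted p = 0.179) and in 5 of 6 fits that left out 1 library (adjusted p from 0.0713 to 0.192), and correction for GC content and length turned its sign (0.15, edgeR adjusted p = 0.105). The libraries labelled KD_NC stood at 0.32 ± 0.132 against NC_NC (SE; edgeR adjusted p = 0.0694), and at 0.52 for JUND without KD_NC replicate 2 (edgeR adjusted p = 0.000846).

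MAFF (ENSG00000185022; chr22:38200767-38216511, plus strand), a small MAF protein induced by stress and inflammatory signals, was highest in the libraries labelled KD_NC. It had 55.2, 54.6 and 59.0 CPM in the libraries labelled KD_OE, 74.9, 57.4 and 71.0 CPM in those labelled KD_NC and 42.6, 46.7 and 42.6 CPM in the NC_NC libraries. All 6 libraries labelled as knockdown were above the NC_NC libraries, and KD_NC replicate 2 lay within the range of the libraries labelled KD_OE. MAFF was 1.54-fold higher in the libraries labelled KD_NC than in NC_NC, at 0.62 ± 0.105 (SE; edgeR adjusted p = 0.000152), and 1.28-fold higher in those labelled KD_OE than in NC_NC, at 0.36 ± 0.105 (edgeR adjusted p = 0.00747). Both rises held for MAFF under all 13 alternatives each. Between the libraries labelled KD_OE and those labelled KD_NC it fell 1.20-fold, at -0.27 ± 0.104 (SE; edgeR adjusted p = 0.0387). That fall of MAFF kept its call under only 6 of 13 alternatives and was lost with upper-quartile scaling (-0.21, edgeR adjusted p = 0.108), with only the groups compared in the fit and in 4 of the fits that left out 1 library, and its value was -0.41 without KD_NC replicate 2.

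MAFG (ENSG00000197063; chr17:81918270-81927714, minus strand), the small MAF partner of NRF2 in many tissues, was highest in the libraries labelled KD_NC as well. It had 187, 191 and 184 CPM in the libraries labelled KD_OE, 239.8, 226 and 218 CPM in those labelled KD_NC and 176, 195 and 187 CPM in the NC_NC libraries. The libraries labelled KD_NC were above all others, and the other groups overlapped. MAFG was 1.22-fold higher in the libraries labelled KD_NC than in NC_NC, at 0.29 ± 0.0814 (SE; edgeR adjusted p = 0.00928). The libraries labelled KD_OE were 1.22-fold lower than those labelled KD_NC, at -0.28 ± 0.0814 (SE; edgeR adjusted p = 0.00751), and stood at 0.01 against NC_NC with a 95% interval from -0.16 to 0.18 (edgeR adjusted p = 0.931). The rise of MAFG over NC_NC was lost without NC_NC replicate 1 (0.25, edgeR adjusted p = 0.0629). MAFG shares 105 bases of exon sequence with SIRT7 on the same strand, which had 14123 counts beside 30617, so some of its reads may have been assigned by the authors' counting to the other gene.

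BATF3 (ENSG00000123685; chr1:212686418-212699985, minus strand) was near the limit of detection. It had 6, 10 and 8 counts in the libraries labelled KD_OE, 6, 2 and 1 counts in those labelled KD_NC and 3, 6 and 8 counts in the NC_NC libraries, or 24, 9 and 17 counts a group. At this depth no difference in BATF3 was tested.

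**Figure D2:**
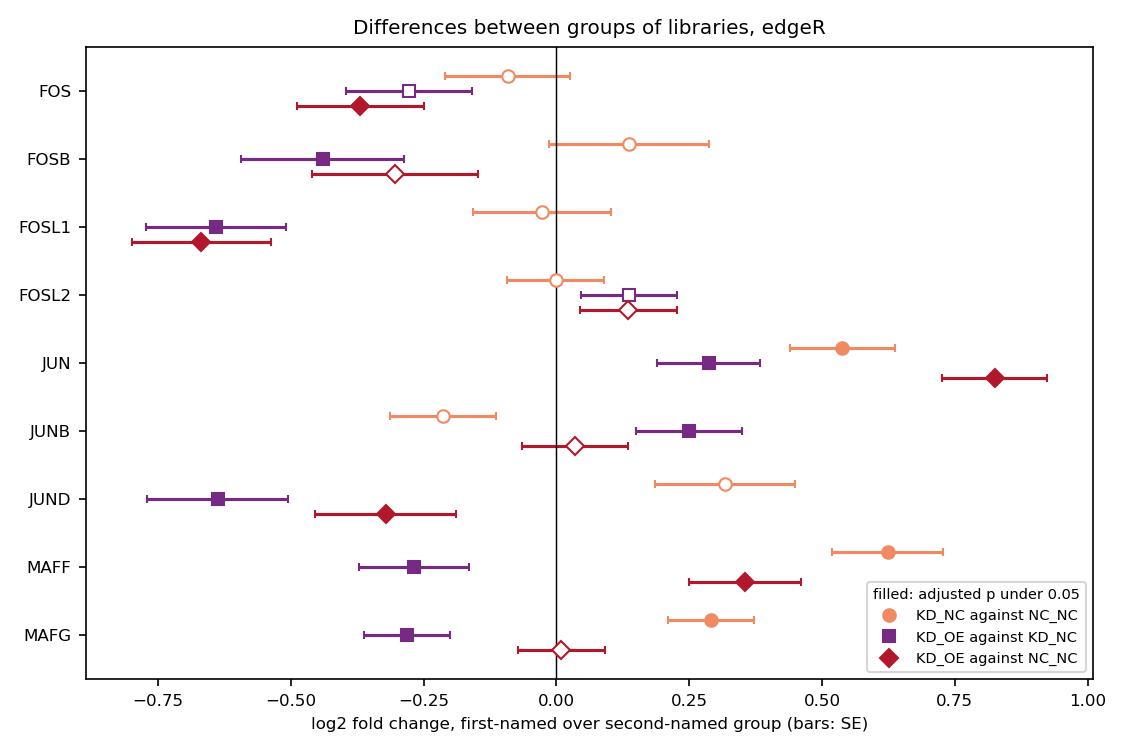
Log2 fold changes of the 9 tested genes (horizontal axis; bars, SE) in KD_NC against NC_NC (circles), KD_OE against KD_NC (squares) and KD_OE against NC_NC (diamonds); filled symbols passed an edgeR adjusted p under 0.05. JUN lies right of 0 in all 3 comparisons, FOSL1 is at -0.64 and -0.67 in both comparisons of KD_OE, and MAFF and MAFG are right of 0 in KD_NC against NC_NC and left of it in KD_OE against KD_NC.

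Levels of different genes were compared per kilobase of exon. FOSL1 was the most abundant member in every group, with 81.3 ± 8.56 CPM per kilobase in the libraries labelled KD_OE, 127 ± 31.0 in those labelled KD_NC and 129 ± 5.06 in the NC_NC libraries (SD, n = 3 each). JUNB came second by its mean in each group. In the libraries labelled KD_OE the order of levels per kilobase was FOSL1, JUNB, JUN, MAFG, JUND, FOSL2, MAFF, FOS, FOSB and BATF3, and no neighbours in it overlapped. In those labelled KD_NC it was FOSL1, JUNB, JUND, MAFG, JUN, MAFF, FOSL2, FOS, FOSB and BATF3. There JUND overlapped JUNB, MAFG and JUN, JUNB overlapped MAFG, and MAFF overlapped FOSL2. In the NC_NC libraries it was FOSL1, JUNB, MAFG, JUND, JUN, FOSL2, MAFF, FOS, FOSB and BATF3, where MAFG overlapped JUND and MAFF overlapped FOS. JUN thus stood at rank 3 by mean level per kilobase in the libraries labelled KD_OE and at rank 5 in the other groups. In those labelled KD_NC the range of JUN, 34.2 to 39.8, lay inside that of JUND, 33.4 to 50.2.

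The composition of each family is given as the share of a gene in the family's summed level per kilobase. FOSL1 made up 81.2, 80.6 and 82.2% of the 4 FOS genes in the libraries labelled KD_OE, 88.6, 84.2 and 86.9% in those labelled KD_NC and 86.8, 86.4 and 87.5% in the NC_NC libraries. Its share was lower in every library labelled KD_OE than in any other library. The mean was 81.3 ± 0.808% there, against 86.6 ± 2.23% in the libraries labelled KD_NC and 86.9 ± 0.548% in NC_NC (SD, n = 3 each). Both differences, -5.26 and -5.62 percentage points, gave a two-sided exact permutation p of 0.1, the smallest that 3 against 3 libraries allow. Taken from counts rather than per kilobase, the shares of FOSL1 were 58.2, 68.3 and 69.1% in the libraries labelled KD_OE, those labelled KD_NC and NC_NC, and the differences were -10.1 and -10.9 points. FOSL2 took most of the difference, with a mean share of 12.0% in the libraries labelled KD_OE, 7.67% in those labelled KD_NC and 7.34% in NC_NC. The summed level of the FOS genes was 92.8 to 110.9 CPM per kilobase in the libraries labelled KD_OE, 115 to 179 in those labelled KD_NC and 142 to 153 in the NC_NC libraries.

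The summed level of the 3 JUN genes was 129 ± 14.3 CPM per kilobase in the libraries labelled KD_OE, 128 ± 14.8 in those labelled KD_NC and 115 ± 6.44 in the NC_NC libraries (SD, n = 3 each). JUN made up 35.3 ± 1.38% of that sum in the libraries labelled KD_OE, 29.3 ± 1.44% in those labelled KD_NC and 22.3 ± 1.36% in NC_NC. JUND made up 22.1 ± 1.02% in the libraries labelled KD_OE, 34.4 ± 3.74% in those labelled KD_NC and 31.0 ± 1.46% in NC_NC. JUNB made up 42.6, 42.2 and 43.0% in the libraries labelled KD_OE, 34.7, 39.1 and 35.2% in those labelled KD_NC and 47.5, 48.0 and 44.4% in NC_NC. The 3 groups did not overlap in the JUNB share, whose difference was -10.3 points in KD_NC against NC_NC, 6.26 points in KD_OE against KD_NC and -4.05 points in KD_OE against NC_NC. Each gave the smallest two-sided exact permutation p that 3 against 3 libraries allow, 0.1. From counts the JUNB share was 31.8% in the libraries labelled KD_OE, 28.3% in those labelled KD_NC and 38.3% in NC_NC.

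**Figure D3:**
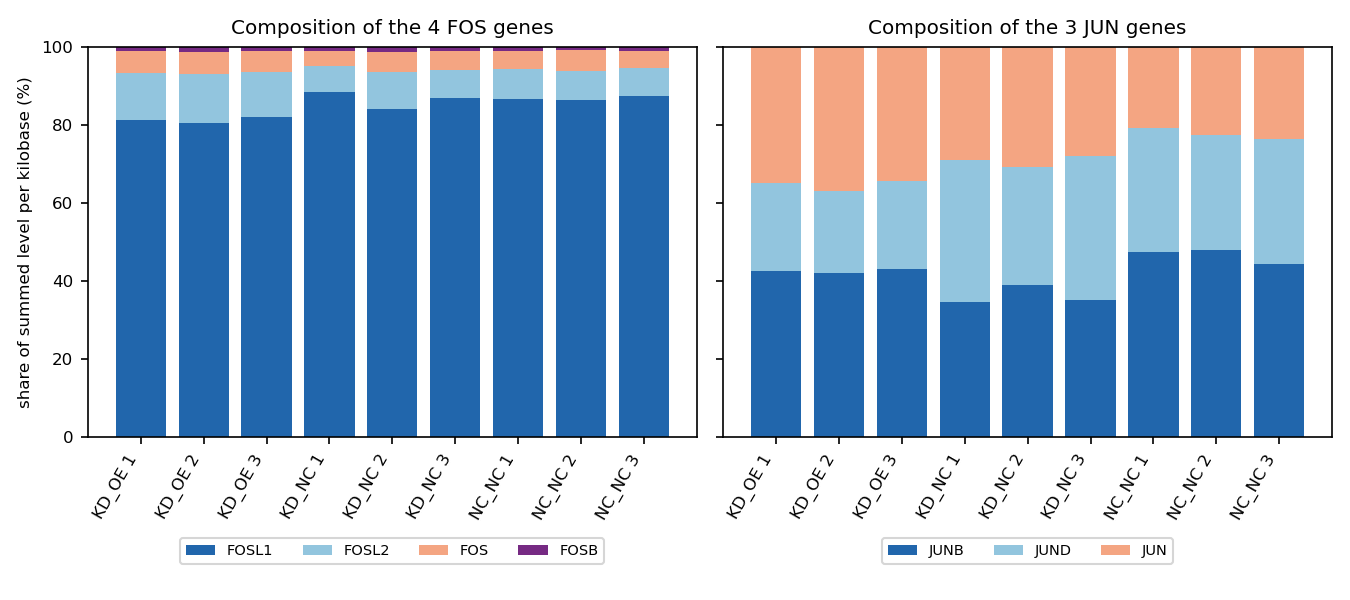
Share of each gene in the summed level per kilobase of the 4 FOS genes (left) and the 3 JUN genes (right), in percent, for each of the 9 libraries. FOSL1 takes 80.6 to 82.2% of the FOS genes in the libraries labelled KD_OE and 84.2% or more elsewhere, and JUN takes 34.4% or more of the JUN genes in the libraries labelled KD_OE and at most 23.5% in NC_NC.

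The content of G and C in a transcript moved with the differences between libraries. Across all tested genes Spearman's rho between GC content and log2 fold change was -0.37 in KD_NC against NC_NC, -0.09 in KD_OE against KD_NC and -0.29 in KD_OE against NC_NC, as a description over genes, which are not independent replicates. Within a group, the deviation of a library from its group's mean also followed GC content, with rho of 0.42 in KD_NC replicate 1, -0.44 in KD_NC replicate 2, -0.39 in KD_OE replicate 1 and 0.47 in KD_OE replicate 3. JUND has 69.7% GC over its exons, JUNB 64.9%, FOSL1 60.1% and FOSL2 52.9%. After a correction for GC content and length, the CV of JUND in the libraries labelled KD_NC was 6.34%, against 21.5% before it, and that of FOSL1 was 15.4%, against 24.4%. The CV rose with the correction for JUND in NC_NC (5.72%, against 2.03%), FOSB in NC_NC (5.81%, against 4.08%), JUNB in the libraries labelled KD_NC (9.91%, against 5.42%) and MAFG in those labelled KD_OE (6.23%, against 1.76%). JUND was then 61.8 ± 3.27 CPM in the libraries labelled KD_OE, 80.4 ± 5.10 CPM in those labelled KD_NC and 55.8 ± 3.19 CPM in NC_NC (SD, n = 3 each). With the correction JUND was called higher in the libraries labelled KD_NC than in NC_NC (0.53, edgeR adjusted p = 1.1e-05). JUNB was called higher in those labelled KD_OE than in NC_NC (0.36, edgeR adjusted p = 0.000319), and so was MAFG (0.16, 0.0445). The falls of FOSL1 kept their call, at -0.52 against the libraries labelled KD_NC and -0.42 against NC_NC.

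**Figure D4:**
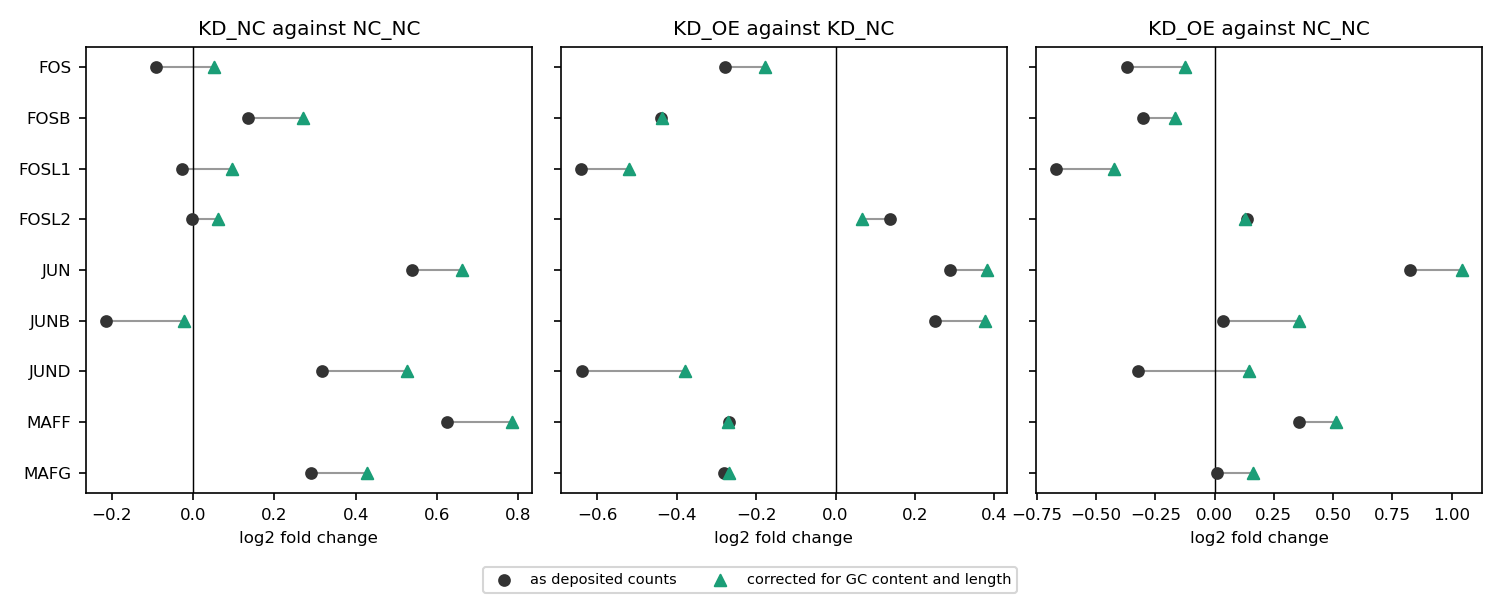
Log2 fold changes of the 9 tested genes from the counts as deposited (circles) and after a correction for GC content and length (triangles), 1 panel a comparison. In KD_OE against NC_NC the value of JUND moves across 0, to 0.15 with the correction against -0.32 without it, while JUN, MAFF and FOSL1 stay on their side in every panel in which they were called.

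Other genes of the AP-1 pathway were described by lists, each read beside the background percentages above. The lists were chosen with earlier results of these data known, so their counts are descriptions and not tests. Of 15 other bZIP partners of AP-1 and MAF proteins, 12 were tested. In KD_NC against NC_NC 6 were higher and 2 lower, with a median log2 fold change of 0.28 beside -0.01 over all genes. In KD_OE against KD_NC 7 were higher and 2 lower (median 0.49, beside 0.01), and in KD_OE against NC_NC 9 were higher and 2 lower (median 0.83, beside 0.02). The 6 higher in KD_NC against NC_NC were 3 without NC_NC replicate 2, and the 2 lower in KD_OE against KD_NC were 1 without KD_NC replicate 2. ATF2, a partner of JUN at cyclic AMP response elements, averaged 130.5 ± 12.5 CPM in the libraries labelled KD_OE, 55.6 ± 7.33 CPM in those labelled KD_NC and 40.1 ± 5.53 CPM in NC_NC (SD, n = 3 each). It was 2.34-fold and 3.26-fold higher in the libraries labelled KD_OE than in the other groups, at 1.23 ± 0.116 and 1.70 ± 0.119 on the log2 scale (SE; edgeR adjusted p = 7.9e-08 and 8.4e-10). ATF3, a stress-induced partner of JUN, was 1.99-fold higher in the libraries labelled KD_OE than in NC_NC (0.99, edgeR adjusted p = 1.1e-07) and 1.33-fold higher in those labelled KD_NC than in NC_NC (0.41, edgeR adjusted p = 0.00367).

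JDP2, a repressor that pairs with JUN proteins, averaged 85.8 ± 7.38 CPM in the libraries labelled KD_OE, 30.2 ± 8.50 CPM in those labelled KD_NC and 78.7 ± 3.60 CPM in NC_NC (SD, n = 3 each). It was 2.62-fold lower in the libraries labelled KD_NC than in NC_NC, at -1.39 ± 0.142 (SE; edgeR adjusted p = 6.9e-07). NFE2L1, an NRF2 relative that pairs with small MAF proteins, was 1.45-fold lower in the libraries labelled KD_NC than in NC_NC (-0.54, edgeR adjusted p = 0.000421) and 2.47-fold higher in those labelled KD_OE than in those labelled KD_NC (1.31, edgeR adjusted p = 6.5e-09). BACH1, a repressor that pairs with the same proteins, was 1.52-fold higher in the libraries labelled KD_NC than in NC_NC (0.61, edgeR adjusted p = 0.00316; 0.33 for BACH1 with the GC and length correction). Its mean was highest in the libraries labelled KD_OE, 1.41-fold over those labelled KD_NC (0.49, edgeR adjusted p = 0.00675) and 2.14-fold over NC_NC (1.10, 2.8e-06). MAFK, the third small MAF gene, was 1.67-fold lower in the libraries labelled KD_OE than in those labelled KD_NC (-0.74, edgeR adjusted p = 8.5e-05) and 1.86-fold lower than in NC_NC (-0.90, 7.1e-06). Its exons lie opposite TMEM184A over 809 bases.

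A list of 15 upstream genes held MAP kinases, their activators, and RPS6KA1 and RPS6KA3, which lie downstream of ERK. It showed 1 higher and 6 lower in KD_NC against NC_NC, 2 higher and 5 lower in KD_OE against KD_NC, and 3 higher and 7 lower in KD_OE against NC_NC. The medians were -0.02, -0.12 and -0.19. The 1 higher gene in KD_NC against NC_NC was 3 without KD_NC replicate 1 or 2 and 0 without NC_NC replicate 2, the 2 higher in KD_OE against KD_NC were 4 with upper-quartile scaling or without KD_OE replicate 3, and the 5 lower there were 9 with the GC and length correction. MAP2K2, an activator of the ERK kinases, averaged 81.4 ± 8.36 CPM in the libraries labelled KD_OE, 97.0 ± 16.5 CPM in those labelled KD_NC and 156 ± 6.82 CPM in NC_NC (SD, n = 3 each). It was 1.61-fold lower in the libraries labelled KD_NC than in NC_NC and 1.92-fold lower in those labelled KD_OE than in NC_NC, at -0.69 ± 0.112 and -0.94 ± 0.113 (SE; edgeR adjusted p = 0.000107 and 8.8e-07). MAP2K1, the paired activator, was 1.51-fold lower in the libraries labelled KD_OE than in those labelled KD_NC (-0.60, edgeR adjusted p = 1.6e-05), and MAPK3, which encodes ERK1, was 1.43-fold lower (-0.52, 0.000286). MAP2K4, which activates JNK, was 1.26-fold higher in the libraries labelled KD_NC than in NC_NC (0.33, edgeR adjusted p = 0.0132). This call was lost for MAP2K4 with the GC and length correction (0.12, edgeR adjusted p = 0.226) and without NC_NC replicate 2 (0.27, 0.0850). MAP2K5, of the ERK5 branch, was 1.45-fold higher in the libraries labelled KD_OE than in those labelled KD_NC (0.54, edgeR adjusted p = 0.00233). RPS6KA1, a kinase downstream of ERK, was 1.74-fold lower in the libraries labelled KD_OE than in NC_NC (-0.80, edgeR adjusted p = 4.8e-07). MAPK10, a JNK gene, had 286 counts in all and shares exon sequence with PTPN13, which had 12448, so its differences are uncertain.

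Serum response factor drives FOS and other immediate early genes with ELK cofactors, and genes of the cytoskeleton with MRTF cofactors. Of these 6 genes 0 were higher and 1 lower in KD_NC against NC_NC, and 1 was higher and 3 lower in each comparison of KD_OE. The gene of the factor itself, SRF, was 1 of the 3 lower in each comparison of KD_OE. It stood at -0.30 against KD_NC (edgeR adjusted p = 0.0393) and at -0.32 against NC_NC (0.0253). The 3 lower against KD_NC were 1 with upper-quartile scaling, with only the groups compared, with the replicate block or without KD_OE replicate 2, and the 1 lower gene in KD_NC against NC_NC was lost without KD_NC replicate 3, NC_NC replicate 2 or NC_NC replicate 3. MRTFB was the gene that was higher in the libraries labelled KD_OE, 1.47-fold over those labelled KD_NC (0.56, edgeR adjusted p = 0.000541) and 1.36-fold over NC_NC (0.45, 0.00283). After correction for GC content and length MRTFB stood at 0.24 in the first of these, and the second turned its sign, at -0.04. MRTFA was 1.26-fold lower in the libraries labelled KD_NC than in NC_NC (-0.33, edgeR adjusted p = 0.0200) and 1.33-fold lower in those labelled KD_OE (-0.41, 0.00257). ELK1 was lower in the libraries labelled KD_OE than in those labelled KD_NC (-0.38, edgeR adjusted p = 0.00672) and 1.42-fold lower than in NC_NC (-0.50, 0.000562; -0.27 for ELK1 with that correction), and ELK3 was 1.21-fold lower than in those labelled KD_NC (-0.28, 0.0305). The ELK3 call was lost under 7 of 13 alternatives, among them upper-quartile scaling (-0.22, edgeR adjusted p = 0.0795) and leaving out KD_NC replicate 2 or 3 or KD_OE replicate 2 or 3 (adjusted p from 0.0559 to 0.103). The MRTFA call in KD_NC against NC_NC was also lost under 7, among them the GC and length correction (-0.17, edgeR adjusted p = 0.0607) and leaving out KD_NC replicate 2 or 3 or NC_NC replicate 2 or 3 (adjusted p from 0.0572 to 0.122).

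FOS and JUN proteins are turned over by ubiquitin ligases, and 7 genes linked to such ligases were listed. In KD_NC against NC_NC 3 were higher and 0 lower, in KD_OE against KD_NC 1 was higher and 1 lower, and in KD_OE against NC_NC 3 were higher and 0 lower. The 1 higher gene in KD_OE against KD_NC was 2 without KD_NC replicate 3 and 0 without KD_OE replicate 2. TRIB1, an adaptor of the COP1 ligase, was 1.77-fold higher in the libraries labelled KD_NC than in NC_NC (0.82, edgeR adjusted p = 3.5e-06) and 1.86-fold higher in those labelled KD_OE than in NC_NC (0.90, 2.4e-07). TRIB2, its relative, averaged 2.34 ± 0.677 CPM in the libraries labelled KD_OE, 7.03 ± 1.10 CPM in those labelled KD_NC and 2.40 ± 0.437 CPM in NC_NC (SD, n = 3 each). Its log2 fold change was 1.55 ± 0.231 in KD_NC against NC_NC and -1.58 ± 0.231 in KD_OE against KD_NC (SE; edgeR adjusted p = 4.6e-05 and 1.5e-05). ITCH, a ligase for JUN and JUNB, was 1.36-fold higher in the libraries labelled KD_OE than in NC_NC (0.45, edgeR adjusted p = 0.000323), a call lost for ITCH with the GC and length correction (0.058, 0.453). USP28, a deubiquitinase that stabilises JUN, was 1.27-fold higher in the libraries labelled KD_OE than in those labelled KD_NC (0.34, edgeR adjusted p = 0.00821), and not called without KD_OE replicate 2 (0.28, 0.0661).

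Of 24 other immediate early genes, which share their upstream signals with FOS and JUN, 10 were higher and 3 lower in KD_NC against NC_NC, 4 higher and 8 lower in KD_OE against KD_NC, and 8 higher and 5 lower in KD_OE against NC_NC. The medians were 0.31, -0.16 and 0.14. The last count of 8 was 5 without NC_NC replicate 1 or 2, without KD_OE replicate 2 or 3, or without the filter on low counts. KLF6, a zinc finger factor induced by injury and growth signals, averaged 40.6 ± 3.16 CPM in the libraries labelled KD_OE, 72.7 ± 4.75 CPM in those labelled KD_NC and 24.2 ± 0.747 CPM in NC_NC (SD, n = 3 each), and it was 3.00-fold higher in those labelled KD_NC than in NC_NC (1.59, edgeR adjusted p = 1.1e-09). DUSP1, a phosphatase that shuts off MAP kinases, was 2.74-fold higher in that comparison (1.45 ± 0.105, SE; edgeR adjusted p = 5.9e-09). The matricellular genes CYR61 and CTGF averaged 69.6 ± 2.99 and 7.17 ± 1.64 CPM in the libraries labelled KD_OE, 233 ± 16.1 and 29.7 ± 2.89 CPM in those labelled KD_NC and 109.5 ± 4.82 and 10.96 ± 0.809 CPM in NC_NC (SD, n = 3 each). Against the libraries labelled KD_NC, CYR61 was 3.34-fold and CTGF 4.14-fold lower in those labelled KD_OE (-1.74 ± 0.0882 and -2.05 ± 0.150, SE; edgeR adjusted p = 2.0e-11 and 2.8e-09).

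EGR1, an immediate early gene with serum response elements like FOS, averaged 99.6 ± 5.75 CPM in the libraries labelled KD_OE, 40.8 ± 6.18 CPM in those labelled KD_NC and 47.7 ± 0.139 CPM in NC_NC (SD, n = 3 each). It was 2.44-fold higher in the libraries labelled KD_OE than in those labelled KD_NC (1.29 ± 0.107, SE; edgeR adjusted p = 1.4e-08), where FOS, at -0.28, and FOSB, at -0.44, had the other sign. KLF4, a squamous differentiation factor, was 2.03-fold higher in the same comparison (1.02, edgeR adjusted p = 1.9e-07) and 1.71-fold lower in the libraries labelled KD_NC than in NC_NC (-0.78, 1.4e-05). PHLDA1 and IER3, both induced by growth factors, were 2.20-fold and 2.19-fold higher in the libraries labelled KD_OE than in NC_NC (1.14 and 1.13, edgeR adjusted p = 3.8e-09 and 2.1e-08). They were also 1.99-fold and 2.44-fold higher in those labelled KD_NC than in NC_NC (edgeR adjusted p = 1.2e-07 and 2.0e-08). Neither was called in KD_OE against KD_NC (0.15 and -0.15, edgeR adjusted p = 0.175 and 0.199). IER5 was 2.32-fold lower in the libraries labelled KD_OE than in NC_NC (-1.21, edgeR adjusted p = 3.3e-08). MCL1, a survival factor, was 1.34-fold lower in the libraries labelled KD_NC than in NC_NC (-0.42, edgeR adjusted p = 0.000445).

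Genes commonly described as AP-1 targets were for the most part higher in the libraries labelled KD_NC than in NC_NC, and lower in those labelled KD_OE than in those labelled KD_NC. The list was chosen with earlier results of these data known, so its counts and medians describe the listed genes only. Of 25 listed, 21 were tested, and MMP9, VIM, IVL and SPRR3 did not pass the filter. In KD_NC against NC_NC 16 were higher and 4 lower, with a median log2 fold change of 1.29 beside -0.01 over all genes. In KD_OE against KD_NC 3 were higher and 14 lower (median -1.05, beside 0.01), and in KD_OE against NC_NC 9 were higher and 5 lower (median -0.05, beside 0.02), where the 5 lower were 8 with the GC and length correction. MMP1, an interstitial collagenase, averaged 62.1 ± 0.893 CPM in the libraries labelled KD_OE, 442 ± 50.2 CPM in those labelled KD_NC and 64.3 ± 2.00 CPM in NC_NC (SD, n = 3 each). It was 6.88-fold higher in the libraries labelled KD_NC than in NC_NC (2.78 ± 0.0962, SE; edgeR adjusted p = 4.9e-13) and 7.12-fold lower in those labelled KD_OE than in those labelled KD_NC (-2.83 ± 0.0964; 9.6e-14). MMP10, a stromelysin, averaged 18.1 ± 1.49 CPM in the libraries labelled KD_OE, 163 ± 15.1 CPM in those labelled KD_NC and 21.2 ± 0.435 CPM in NC_NC, 7.71-fold higher in KD_NC against NC_NC (edgeR adjusted p = 4.9e-13) and 8.996-fold lower in KD_OE against KD_NC (8.0e-14).

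Not all targets shared that course. PLAU, the urokinase gene, averaged 748 ± 16.0 CPM in the libraries labelled KD_OE, 443 ± 29.2 CPM in those labelled KD_NC and 249 ± 18.5 CPM in NC_NC (SD, n = 3 each), and like JUN it was called higher in each comparison. It was 3.00-fold higher in the libraries labelled KD_OE than in NC_NC (1.59 ± 0.0876, SE; edgeR adjusted p = 4.3e-11). CXCL8, a neutrophil chemokine, was 3.09-fold higher in the libraries labelled KD_OE than in NC_NC (1.63, edgeR adjusted p = 1.3e-09; 1.05 for CXCL8 with the GC and length correction). CXCL8 stood at 1.71 in KD_NC against NC_NC (edgeR adjusted p = 3.4e-09) and at -0.09 in KD_OE against KD_NC (0.557). CCND1, the cyclin of the G1 phase, was 1.48-fold lower in the libraries labelled KD_NC than in NC_NC (-0.57, edgeR adjusted p = 2.5e-05) and 2.46-fold lower in those labelled KD_OE (-1.30, 2.1e-10). TGM1, a transglutaminase of the cornified envelope, was 1.78-fold lower in the libraries labelled KD_NC than in NC_NC (-0.83, edgeR adjusted p = 3.5e-05). EGFR, a growth factor receptor, was 1.77-fold higher in the libraries labelled KD_OE than in those labelled KD_NC (0.83, edgeR adjusted p = 3.8e-06). FGFBP1, a carrier of fibroblast growth factors, did share that course. It stood at 0.35 in KD_NC against NC_NC (edgeR adjusted p = 0.0325) and at -1.56 in KD_OE against KD_NC (1.3e-08). FGFBP1 was also 2.32-fold lower in the libraries labelled KD_OE than in NC_NC (-1.21, edgeR adjusted p = 1.9e-07). FOSL1, described with metalloproteinase genes, stood at -0.03 in KD_NC against NC_NC, where MMP1 and MMP10 stood at 2.78 and 2.95. In KD_OE against KD_NC FOSL1 stood at -0.64, MMP1 at -2.83 and MMP10 at -3.17. In KD_OE against NC_NC the values of FOSL1, MMP1 and MMP10 were -0.67, -0.05 and -0.22. A link between FOSL1 and the metalloproteinase genes was not tested. The summed squamous markers given above also differed between groups, and their part in these values was not tested.

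**Figure D5:**
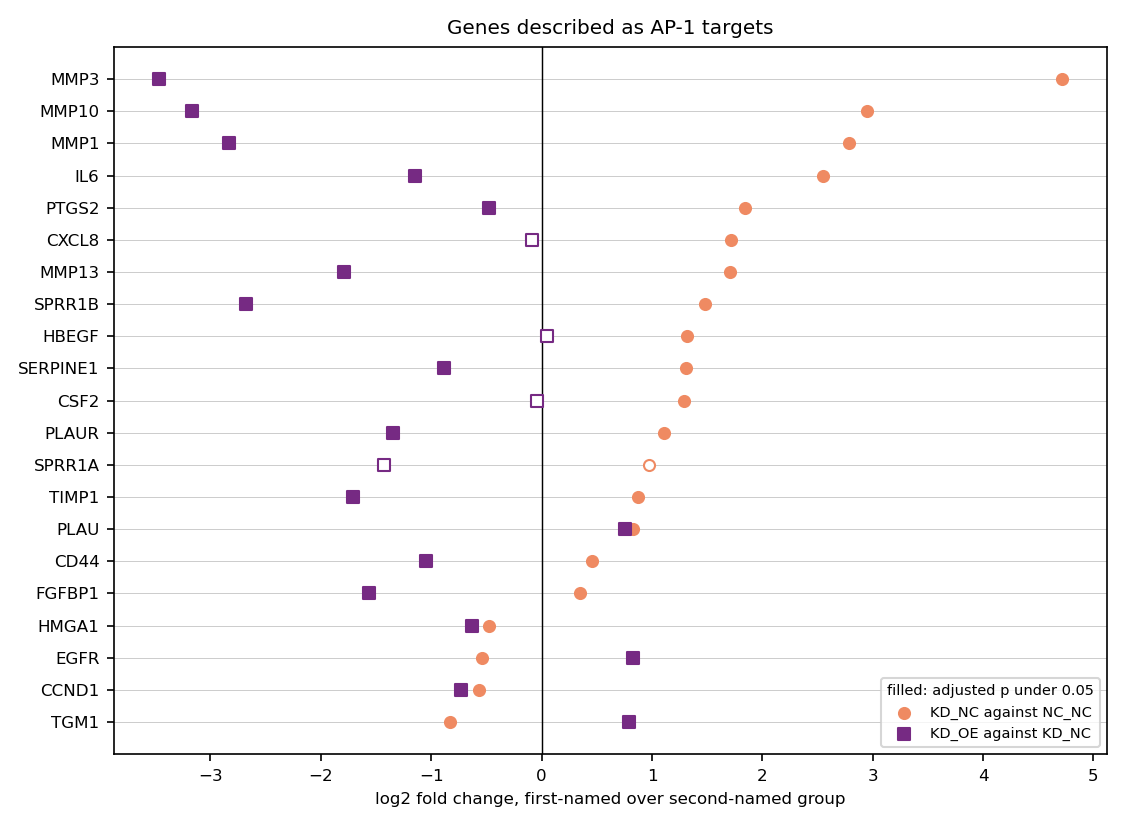
Log2 fold changes of the 21 tested genes described as AP-1 targets, in KD_NC against NC_NC (circles) and KD_OE against KD_NC (squares), ordered by the first; filled symbols passed an edgeR adjusted p under 0.05. MMP3, MMP10 and MMP1 stand farthest from 0 in KD_NC against NC_NC, and PLAU lies right of 0 in both comparisons; both comparisons use the libraries labelled KD_NC.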

How the data were processed

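The values deposited by the authors are read counts of 58735 genes in 9 libraries, whole numbers without normalisation. The aligner HISAT2 2.0.5, StringTie 1.3.3b and the counter featureCounts 1.5.0-p3 are named with the build hg19 per the submitters' processing notes, but the coordinates of all 58735 genes are those of GENCODE v29 on GRCh38, so positions are given on GRCh38. Per the labels' protocols, libraries came from total RNA with a NEBNext Ultra RNA kit. The sources used here do not give the strand setting or how reads matching several genes were counted. The deposited counts were filtered with edgeR's filterByExpr (at least 10 counts), scaled with TMM factors and fitted with edgeR 4.0.16 (R 4.3.3; quasi-likelihood, robust, 1 term per group, 6 residual degrees of freedom). Benjamini-Hochberg adjustment of the p-values ran over 16812 genes. An SE was obtained from the log2 fold change and its F statistic. Shares were compared with a two-sided exact permutation test.

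The members and lists were chosen with earlier results of these data known. The 6 lists hold 92 genes, all found, 2 of them under an older symbol. Named were all members and, of each list and comparison, up to 2 risen and 2 fallen genes with the lowest adjusted p; 1 gene so named is not reported here. Alternatives were upper-quartile scaling, DESeq2 1.42.0, no filter, only the 2 groups compared, the replicate number as a block, a loess correction (span 0.5) for GC content and length, and leaving out each library. Steps were tested on simulated counts.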

Additional observations from a re-analysis of the deposited data

How the results depend on the processing

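Of the 27 log2 fold changes of the 9 tested members, 12 kept their direction and their side of the threshold under all 13 alternatives each, and 8 of the 15 called ones did so. Among 351 values under alternatives 283 were the same in that sense, 33 lost a call, 11 gained one and 24 changed sign. The calls that held under all alternatives run were those of FOSL1 and JUND in KD_OE against KD_NC, MAFG in the same comparison, FOSL1, JUN and MAFF in KD_OE against NC_NC, and JUN and MAFF in KD_NC against NC_NC. Of the 60 called values of named list genes, 51 held under all alternatives run.

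The count of members called was 4 to 6 without 1 library, beside 7 in all, in KD_OE against KD_NC, the lowest without KD_NC replicate 1 or KD_OE replicate 1. It was 3 to 5, beside 5, in KD_OE against NC_NC (3 without KD_OE replicate 1 or NC_NC replicate 2), and 2 to 4, beside 3, in KD_NC against NC_NC. The FOSL1 share in KD_NC against NC_NC, -0.361 points with all libraries, was 0.836 points without KD_NC replicate 2, in a leave-one-out range of -1.38 to 0.836.

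Values that changed sign were mostly near 0, and the cause of these changes was not tested. In KD_NC against NC_NC they were FOSL1 with upper-quartile scaling (0.018), with only the groups compared (0.00091), with the GC and length correction (0.10; 0.090 with the replicate block) and without KD_NC replicate 2 (0.16, leave-one-out range -0.22 to 0.16). FOSL2 changed sign with upper-quartile scaling (0.043), DESeq2 (0.0092), no filter (0.022), only the groups compared (0.026), the GC and length correction (0.062, also with the block), and without KD_NC replicate 2, KD_NC replicate 3 or NC_NC replicate 2, in a leave-one-out range of -0.055 to 0.049. FOS did so with the correction (0.052; 0.054 with the block) and without KD_NC replicate 2 (0.015; range -0.14 to 0.015). In KD_OE against NC_NC, JUND was 0.15 with the correction, also with the block, and MRTFB -0.038 with either. MAFG was -0.0042 without the filter, and below 0 without KD_OE replicate 2 or NC_NC replicate 1, in a leave-one-out range of -0.039 to 0.033. JUNB was below 0 without KD_OE replicate 3 or NC_NC replicate 3, in a range of -0.072 to 0.095.

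Same-numbered libraries of different groups did not deviate together. The correlation of their deviations from the group means was -0.111 to 0.0630 over 9 pairs, 0 of them over 0.1, and 1 of 9 libraries correlated best with its own number. With the replicate number as a block 3, 5 and 5 members were called in the 3 comparisons, JUNB and MAFF being lost in KD_OE against KD_NC. The GC correction with this block was added after seeing the data. With upper-quartile scaling the median of all genes shifted by 0.10 in KD_OE against NC_NC and by less in the others. Of all calls, 46.4%, 48.1% and 49.6% were higher in the 3 comparisons, and with the GC and length correction 37.6%, 42.5% and 40.1%. BATF3, at 1 to 10 counts a library, is limited by depth.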

Other observations

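The deposited table gave the bZIP family to 38 genes outside the members, a list taken after the file was seen, of which 32 were tested. In KD_NC against NC_NC 12 were higher and 6 lower, beside 16.0% and 18.5% of all genes called higher and lower. The median log2 fold change was 0.10, beside -0.01 over all genes. In KD_OE against KD_NC 18 were higher and 3 lower, beside 23.7% and 25.6% (median 0.49, beside 0.01). In KD_OE against NC_NC 19 were higher and 3 lower, beside 27.9% and 28.4% (median 0.41, beside 0.02).

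The genes whose course over the 9 libraries was most like that of each member were found among 10358 protein-coding genes with at least 5 CPM, by the mean absolute difference of centred log2 CPM. Nothing on shared function follows from it, since all genes share the depth and GC content of a library. Closest to FOSL1 were TGFB1 (0.0563), a secreted growth factor, and CINP (0.0573). TGFB1 averaged 35.0 CPM in the libraries labelled KD_OE, 57.7 CPM in those labelled KD_NC and 59.1 CPM in NC_NC. Closest to JUN were BHLHE40 (0.0479), a stress-responsive repressor, and PC (0.0664), pyruvate carboxylase. BHLHE40 averaged 220.5 CPM in the libraries labelled KD_OE, 185 CPM in those labelled KD_NC and 134 CPM in NC_NC. For MAFF they were VAT1 (0.0698) and FCGRT (0.0785), for MAFG AACS (0.0453) and LRRC8A (0.0453), for JUND ARL3 (0.0752) and CD151 (0.0762), and for JUNB STX5 (0.0458) and DMTN (0.0502). For FOS they were PIP4P1 (0.0254) and MVP (0.0375), for FOSB KANK2 (0.0643) and DEAF1 (0.0691), and for FOSL2 MADD (0.0258) and GOLGA3 (0.0261).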
